A study of Mus musculus with 7 samples.

Results

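Lipid droplets are the organelles in which cells keep neutral fat, and the 9 genes described here encode proteins of their surface: the perilipins Plin1 to Plin5, the CIDE proteins Cidea, Cideb and Cidec, and the enzyme Hsd17b13. They were followed on 7 mouse expression arrays through every probe whose transcript accession belongs to 1 of these symbols, which gave 12 probes, with 2 each for Cideb, Cidec and Hsd17b13 and 1 for each other gene. All 12 passed the filter on dim probes, and 11 were well above background on all 7 arrays; the 9 genes are part of 18031 genes tested. The genes were chosen by the differences between the groups on these same arrays, which were known when the genes were proposed, so that their values are given as a description, without a test. In 5 of them the groups did not overlap, beside 58.7% of all genes tested, and 53.1% of all genes passed the test in either direction (limma, adjusted p under 0.05); since the groups chose the members, nothing is read from these shares.

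The arrays hold RNA of cells sorted by flow cytometry from back skin at postnatal day 15 and labelled dermal sheath, the mesenchymal layer around the hair follicle. In both groups the cells were sorted as carrying the YFP reporter and as lacking CD34, alkaline phosphatase and integrin α8. Control arrays 1 and 2 hold 1 mouse each and control array 3 holds RNA of 2. Among the 4 arrays labelled cΔex3, by the labels a β-catenin activation, arrays 1 and 4 hold 1 mouse each and arrays 2 and 3 hold 2 each. The driver that marks the YFP-positive cells and alters β-catenin in them is not given in the sources used here. The study asked what active β-catenin does in the dermal sheath.

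A value below is the log2 of a probe's processed signal relative to the 75th percentile of its array, unless it is called a signal, which is the scanner's processed intensity itself. The percentile was 756.1 to 906.7 on control arrays and 1348 to 2160 on activation arrays, so that an equal signal gives a lower value on the latter. No spot was saturated, and the number of arrays limits the precision. Ctnnb1, the β-catenin gene, was level between the groups, at 3.46 ± 0.01 (SD, n = 3) and 3.44 ± 0.05 (SD, n = 4), through 1 probe whose exon is not known here, so that it checks nothing about the allele. The label of the cells met other transcripts in the data. The summed signal of 11 hepatocyte markers, relative to the percentile, was 4020 to 5245 on control arrays and 134.7 to 252.1 on activation arrays. All 11 were well above background on every control array. Most of the activation sum came from Trf, whose difference of −1.84 was the smallest fall of the 11. The median of the 11 was 8.67 to 9.13 on control arrays and −1.51 to 0.98 on activation arrays. The summed signal of 9 white adipocyte markers was 13.3 to 42.4 on control and 801.4 to 1654 on activation arrays. All 9 were well above background everywhere. Of 7 dermal sheath markers all were well above background on every array, with a summed signal of 22.3 to 30.8 and 61.9 to 129.9. Most of the control sum came from Tagln, while Myh11 averaged −4.46 on control arrays. The list also holds Itga8, the gene of integrin α8, which the cells were sorted as lacking. Of the 7 markers 4 rose and 3 did not pass the test (limma, adjusted p under 0.05). What part these cells have in the results below was not tested, and in bulk RNA fewer cells of a type and less RNA per cell cannot be told apart. Slide positions in the file names differ from those in the scanner's headers, so that every group difference below rests on the deposited match of file to sample, which these data do not check.

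As background, perilipins coat the droplet and decide how easily lipases reach the fat inside. Plin1 belongs to fat cells, where it holds back lipolysis until it is phosphorylated; Plin4 is also a fat cell perilipin; Plin2 and Plin3 are found in most tissues; Plin5 belongs to tissues that burn fat, such as heart, brown fat and fasted liver, where it links droplets to mitochondria. CIDE proteins gather where droplets touch and pass lipid from the smaller to the larger one: Cidec in white fat, Cidea in brown fat and sebaceous glands, and Cideb in liver, where it also serves the loading of lipoproteins. Cidea and Cidec are also known to appear in fatty liver. Hsd17b13 is a droplet enzyme found mainly in hepatocytes.

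Promoter sequence is shown for 4 genes that differ in pattern: Plin1 and Cidec, higher on activation arrays, and Hsd17b13 and Plin2, which were not. Each line gives the 250 bases before the RefSeq start of the gene, 5′ to 3′ along the gene, from the table on GRCm38.p6 (the minus strand in all 4), with the motifs found in capitals. The windows are chr7:79732777-79733026 for Plin1, chr6:113434765-113435014 for the second of 2 Cidec starts, chr5:103977389-103977638 for Hsd17b13 and chr4:86670060-86670309 for Plin2.
Plin1: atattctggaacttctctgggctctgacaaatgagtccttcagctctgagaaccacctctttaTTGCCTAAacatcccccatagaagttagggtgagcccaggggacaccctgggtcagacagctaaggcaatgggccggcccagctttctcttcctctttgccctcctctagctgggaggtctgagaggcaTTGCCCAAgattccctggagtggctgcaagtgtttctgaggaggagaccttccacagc
Cidec: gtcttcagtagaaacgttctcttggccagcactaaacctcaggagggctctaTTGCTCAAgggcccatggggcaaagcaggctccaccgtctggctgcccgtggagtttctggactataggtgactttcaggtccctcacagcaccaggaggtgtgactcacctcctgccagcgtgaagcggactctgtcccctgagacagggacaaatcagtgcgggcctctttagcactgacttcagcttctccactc
Hsd17b13: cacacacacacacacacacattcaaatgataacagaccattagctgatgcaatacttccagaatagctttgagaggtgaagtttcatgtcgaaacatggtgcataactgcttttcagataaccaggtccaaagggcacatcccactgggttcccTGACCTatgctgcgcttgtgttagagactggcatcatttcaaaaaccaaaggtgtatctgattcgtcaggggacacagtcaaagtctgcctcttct
Plin2: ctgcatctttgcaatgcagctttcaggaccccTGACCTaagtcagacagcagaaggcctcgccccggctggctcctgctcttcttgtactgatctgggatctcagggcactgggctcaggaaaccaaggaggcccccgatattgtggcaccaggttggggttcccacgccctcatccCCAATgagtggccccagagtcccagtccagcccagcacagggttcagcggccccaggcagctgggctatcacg
In capitals stand TTGCNNAA, a C/EBP motif, in Plin1 and Cidec, and AGGTCA, a nuclear receptor half-site that reads TGACCT on the other strand, in Hsd17b13 and Plin2; Plin2 also has a CCAAT box. The window of the first Cidec start, not shown, held no C/EBP match. 6 motifs were searched on both strands of 300-base windows, which run 50 bases past the start: these 3, the PPAR-RXR direct repeat (2 half-sites 1 base apart, which can overlap the half-site), the TCF/LEF motif ATCAAAG through which β-catenin acts, and the TATA box TATAAA. RefSeq windows were at hand for 8 of the 9 genes, 10 windows in all. The C/EBP motif stood in windows of 2 genes and in 10.8% of all 32851 promoters. The half-site stood in windows of 3 genes (Hsd17b13, Plin2 and Plin5) and in 16.3% of promoters, and the CCAAT box in 4 genes (Plin2, Plin3, Plin4 and Plin5) and in 37.4%. TATAAA stood in the window of Cideb and in 13.6%, while neither the direct repeat (0.381% of promoters) nor ATCAAAG (3.73%) matched a member window. A match is a string of letters in this window and says nothing of binding.

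Among the perilipins and CIDE genes of fat cells, Plin1, Plin4 and Cidec were higher on every activation array than on any control array. They are 3 of the 9 genes, where 26.1% of all genes tested lay higher in this way. Plin1 had signals of 21.7, 42.2 and 29.6 on control arrays 1 to 3 and of 80919, 64884, 85347 and 44402 on activation arrays 1 to 4. Its control signals were low but called well above background, and no activation array came near them. On the log2 scale this was −4.75 ± 0.52 (SD, n = 3) against 5.27 ± 0.61 (SD, n = 4), a difference of 10.02 ± 0.40 (SE). The dimmest probes called well above background lay at −6.26, −5.70 and −5.59 on the control arrays, not far below Plin1. With normexp in place of the scanner's background correction the difference was 8.55.

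Plin4 gave values of 1.52, 1.22 and 2.60 on the control arrays and of 7.59, 8.03, 8.01 and 6.61 on the activation arrays, 5.78 ± 0.47 (SE) apart. In contrast to Plin1 it was well expressed on the control arrays too, with signals of 1764 to 5509, and control array 3 was the highest of the 3. Next to Plin4 on chromosome 17 lies Plin5, whose values went the other way, as given below.

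Cidec, which fuses droplets into the single large one of white fat cells, gave 1.38, 0.92 and 5.63 on control arrays 1 to 3 and 7.73, 8.15, 8.00 and 6.94 on activation arrays 1 to 4. The groups lay 5.06 ± 1.1 (SE) apart, but control array 3 stood 4.48 above the mean of the other two. The second probe also had control array 3 as the highest of its group, with −3.13, −2.50 and 0.65 against 4.25, 4.98, 4.62 and 2.51, and a difference of 5.75 ± 0.98 (SE). Without control array 3 the difference of the brighter probe was 6.55. A range over the control arrays larger than that of Cidec (4.70) was found for 0.338% of genes tested, and the median over all genes was 0.44.

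**Figure D1:**
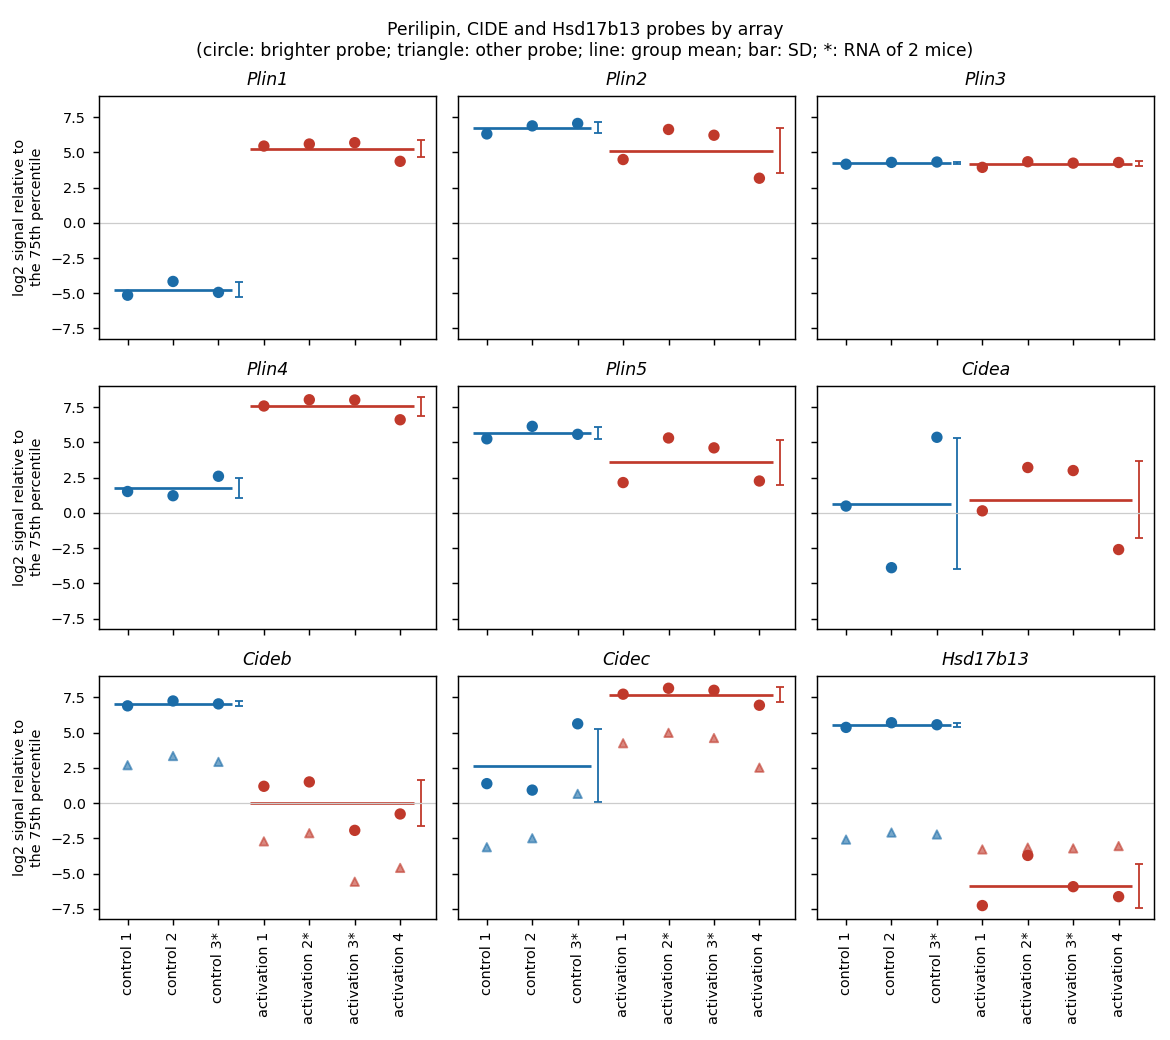
Log2 signal relative to each array's 75th percentile (vertical axis) for the 9 genes on 3 control arrays (blue) and 4 activation arrays (red). Circles are the brighter probe, triangles the other one, lines group means and bars the SD; Plin1, Plin4 and Cidec are high on all red arrays, Cideb and Hsd17b13 on all blue ones, and Cidea spreads over both groups, from −3.88 to 5.37.

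Cideb and Hsd17b13, the members known from liver, were lower on every activation array than on any control array, 2 of 9 genes where 32.6% of all genes tested lay lower in this way. Cideb had signals of 91060, 114705 and 119188 on the control arrays and of 4243, 3814, 434 and 1263 on activation arrays 1 to 4. The values were 7.06 ± 0.17 (SD, n = 3) and 0.00 ± 1.64 (SD, n = 4), a difference of −7.06 ± 0.83 (SE), and the second probe gave −6.74 ± 0.81 (SE). The control arrays lay close together, while the activation arrays spread over 3.44, with arrays 1 and 2 at 1.19 and 1.50 and arrays 3 and 4 at −1.94 and −0.77. Albumin (Alb), the main hepatocyte transcript, had another order there, at −0.76, 2.30, 1.79 and 2.44.

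Hsd17b13 was read by 2 probes that did not give the same picture. The probe for NM_001163486 had signals of 31584, 39352 and 42729 on control arrays and of 12.0, 102.8, 27.2 and 21.7 on activation arrays 1 to 4, and was not well above background on activation array 1. Its values were 5.37, 5.70 and 5.56 against −7.27, −3.71, −5.93 and −6.64, which lay −11.43 ± 0.79 (SE) apart. The probe for the other transcript, NM_198030, had signals of 126.7, 177.5 and 193.8 against 190.1, 150.8, 178.6 and 260.5, which overlap. Relative to the percentile it differed by −0.88 ± 0.20 (SE). The mean of both probes differed by −6.15. The gene next to Hsd17b13 on chromosome 5, Hsd17b11, which encodes a related droplet enzyme, fell by 2.17 ± 0.38 (SE) on the log2 scale (limma, adjusted p = 0.00322).

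Plin2 and Plin3, perilipins of most tissues, and Plin5, of tissues that burn fat, overlapped between the groups. Plin2 gave 6.31, 6.88 and 7.05 on the control arrays and 4.49, 6.62, 6.21 and 3.16 on activation arrays 1 to 4, a difference of −1.62 ± 0.83 (SE). Activation arrays 2 and 3 lay within or just under the control range, and arrays 1 and 4 well under it. Plin5 showed the same split, at 5.26, 6.14 and 5.58 against 2.15, 5.32, 4.62 and 2.27, a difference of −2.07 ± 0.84 (SE). Over all activation arrays, Plin2 averaged 2.59 and Plin5 2.76 higher on arrays 2 and 3, which hold 2 mice each, than on arrays 1 and 4, which hold 1. These arrays also differed in the share of probes well above background. It was 68.1% and 70.0% on arrays 2 and 3 and 81.0% and 82.0% on arrays 1 and 4. Within the activation group this share and the pooling of mice cannot be told apart. Restricted to arrays of 1 mouse, the differences from control were −2.76 for Plin2 and −3.49 for Plin5, and neither gene then overlapped, beside 42.4% of all genes lower without overlap in those arrays. The Plin2 difference shrank to −0.97 without activation array 4, to −0.84 with quantile normalisation and to −0.89 in the authors' deposited values.

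Plin3 varied least of the 9 genes, at 4.16, 4.29 and 4.31 on the control arrays and 3.93, 4.33, 4.23 and 4.28 on the activation arrays, a difference of −0.06 ± 0.17 (SE). This level reading holds for values relative to the percentile. Its signals were 13605, 14743 and 18003 against 28380, 27136, 31201 and 41911, higher on every activation array, and with quantile normalisation it was 0.55 higher, with normexp 0.15 and in the authors' deposited values 0.68. Under quantile normalisation and in the deposited values its groups no longer overlapped, beside 31.8% and 31.4% of all genes higher in this way. Those scalings moved the median over all genes from −0.08 to 0.13, −0.19 and 0.11, and relative to that median Plin3 was 0.43, 0.35 and 0.58 higher, against 0.02 in the values used here.

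**Figure D2:**
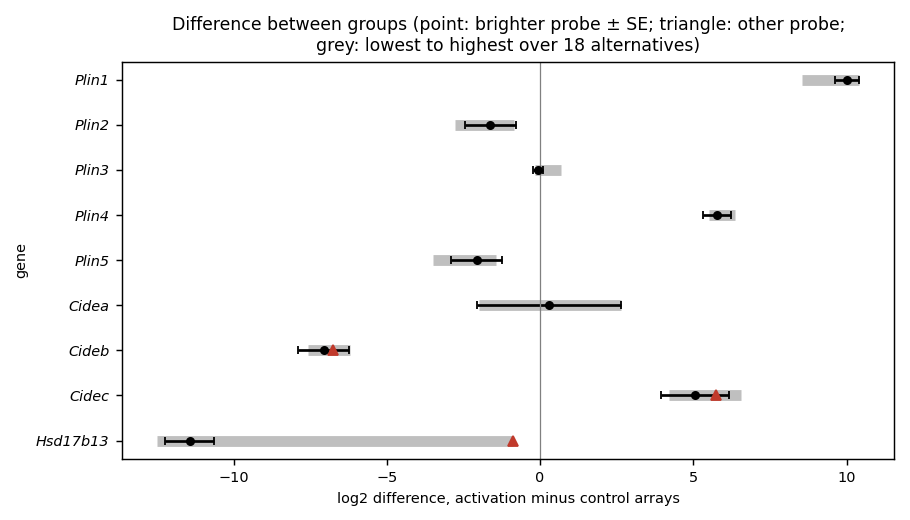
Log2 difference, activation minus control arrays, of the 9 genes: points with bars are the brighter probe ± SE over 3 and 4 arrays, red triangles the second probe, and grey bars the lowest to highest value over 18 alternative settings. Plin1, Plin4 and Cidec stay above 0 and Cideb below it over all of these, Hsd17b13 runs from −12.49 to −0.88, and Cidea and Plin3 cross 0.

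Cidea was the member with the widest spread inside a group, and its groups could not be told apart. It gave 0.49, −3.88 and 5.37 on control arrays 1 to 3, which as signals were 1070, 51.2 and 37436. On activation arrays 1 to 4 it gave 0.15, 3.22, 3.01 and −2.60. The difference was 0.29 ± 2.34 (SE), and it became −1.98 without control array 2, 2.64 without control array 3, −0.47 without activation array 2, −0.40 without activation array 3 and 1.47 without activation array 4. Its range over the control arrays was 9.25, and 0.0222% of genes tested had a larger one; over the activation arrays it was 5.82, with 1.29% larger. Cidea was higher on each of the 3 arrays of pooled mice than on any of the 4 arrays of 1 mouse, which held for 1.81% of genes tested and for no other member.

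On control array 3, Cidea and Cidec stood high together with some fat cell genes and not with others. Of 9 white adipocyte markers 3 (Cfd, Fabp4 and Lpl) were highest of the control group there, beside 33.7% of all genes tested. So were 6 of 7 macrophage, 5 of 6 dermal fibroblast and 3 of 5 endothelium markers. Fewer were so among brown adipocyte (2 of 8) and dermal sheath markers (1 of 7), and no hepatocyte or skeletal muscle marker was. The part of these cells in the values of Cidea and Cidec was not tested. The summed signal of the 9 white adipocyte markers was 42.4 against 15.0 and 13.3, and most of the 42.4 came from Cfd. Plin4, as given above, was highest there too, whereas Plin1 was −4.94, between the other control arrays, and the adipocyte hormone gene Adipoq was −5.12, the lowest of the 3 (−4.52 and −1.95 on arrays 1 and 2). Cfd, the adipocyte gene of complement factor D, was 4.69 there against 0.62 and 1.93. Pparg, the regulator of fat cell genes, was 3.11 against 1.90 and 1.91, and Mogat1, a monoacylglycerol acyltransferase gene, 1.40 against −0.59 and −2.01. The hepatocyte marker median was 8.67 on this array against 9.10 and 9.13.

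On activation arrays 2 and 3 Cidea was higher than on arrays 1 and 4. Arrays 2 and 3 also had a smaller share of probes well above background, as given above. Of the brown fat markers, 7 of 8 were higher on both than on arrays 1 and 4. So were 5 of 9 white adipocyte, 2 of 5 sebocyte, 4 of 5 endothelium and 4 of 7 macrophage markers. The same held for 1 of 6 dermal fibroblast and 1 of 7 dermal sheath markers. It held for no hepatocyte, hepatic stellate cell, keratinocyte or skeletal muscle marker tested. The share of all genes higher on arrays 2 and 3 in this way is not given here, so nothing is read from these counts. Cox8b, a cytochrome oxidase subunit of brown fat and muscle, was 4.05 and 4.04 there against 0.12 and −1.09 on arrays 1 and 4, and Cox7a1 was 2.62 and 3.15 against 0.37 and −0.27. Ucp1, the uncoupling protein that defines brown fat, was −2.54 and −3.54 against −4.99 and −5.39, and was not well above background on any control array. Zic1, a transcription factor gene of brown fat, was −2.27 and −2.40 against −3.20 and −3.13. On the control arrays Zic1 was −2.25, −2.21 and −2.42, much as on activation arrays 2 and 3. Otop1 split by little, at −3.00 and −3.22 against −3.35 and −3.55. Elovl3 was −4.97 and −3.89 against −8.59 and −6.41, but averaged 2.72 on the control arrays. Dio2, the exception, was highest on activation array 1. The sebocyte markers that split so were Scd3 and Krt79, the latter at 3.35 and 3.70 against 0.58 and 0.01, while Mc5r (−2.36 and −2.81 against −2.93 and −2.35), Awat2 and Fa2h did not. On control array 3, where Cidea was highest, Cox8b was −1.20 and Krt79 −0.21. Over control arrays 1 to 3 Cox8b was 2.27, −3.60 and −1.20, and Cox7a1 was 1.93, 0.98 and 0.96. The part of these cells in the values of Cidea was not tested.

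By slide row, as the file headers give it, Cidea differed by 1.85 in the row of control arrays 1 and 2 and activation array 1 and by −4.16 in the row of the other arrays, and by −1.33 with the row as a block. Cidec differed by 6.58 and 2.07 in these rows, or 4.19 with the block.

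Within the activation group, array 2 was the highest of the 4 for 8 of the 9 genes, with Plin1 as the exception, though the full order of arrays differed between members. Array 4 was the lowest for 5 (Plin1, Plin2, Plin4, Cidea and Cidec); over all genes tested the shares were 28.3% and 40.6%. Array 2 also had the lowest 75th percentile of the group, and by signal alone it was highest for 3 members (5.27% of all genes) and array 4 lowest for 5 (19.5%). Array 4 had the highest keratinocyte marker median of the group, 0.25 against −3.38, −2.18 and −1.92. Krt5, of basal keratinocytes, was 2.30 there against −3.38, −3.14 and −2.19. Trp63, the only keratinocyte marker tested that was not highest there, was 2.17 against 2.46, 2.05 and 2.42. The white adipocyte median was 6.30 on array 4 against 7.41, 7.47 and 7.93. What part these cells have in the order of the arrays was not tested.

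**Figure D3:**
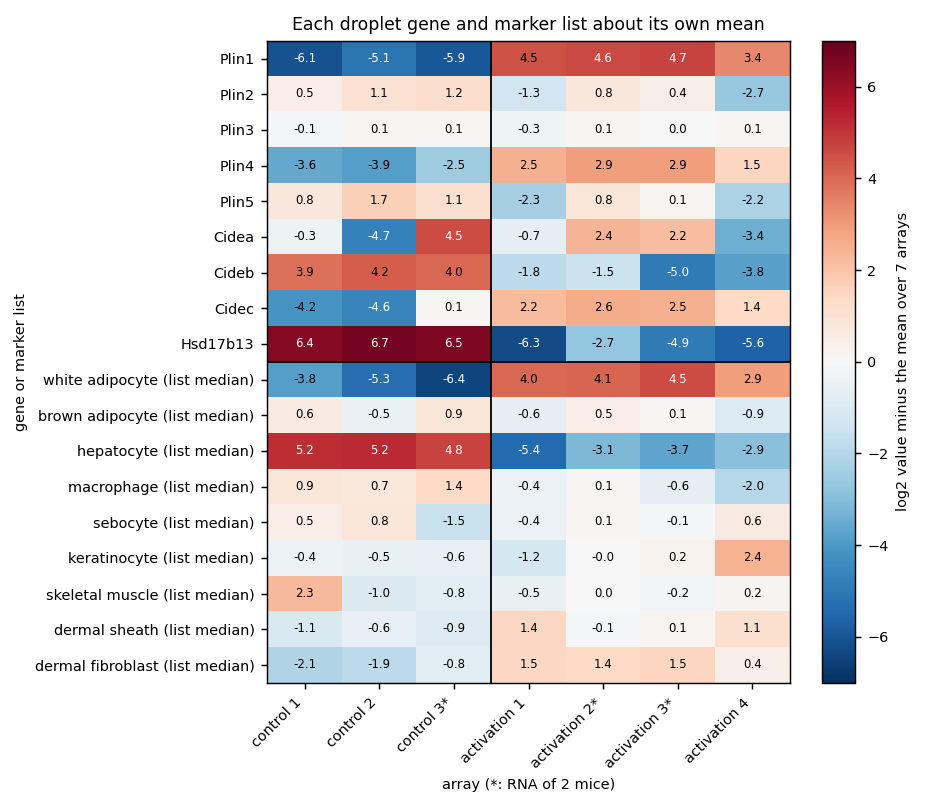
Values of the 9 genes (brighter probe) and medians of 9 marker lists on each of 7 arrays, as log2 value minus the row's own mean, from blue (low) to red (high). Plin1 and Plin4, and Cidec on all but control array 3, share their side with the white adipocyte list, Cideb and Hsd17b13 with the hepatocyte list, and Cidea is highest on control array 3.

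The genes nearest to each member, by the root mean square difference of their centred values over 7 arrays, differed between the members. Such nearness is largely set by the split between the groups and is a description. Nearest to Plin1 were the adipokine gene Retn (0.18 on the log2 scale), Nnat (0.19) and the amine oxidase gene Aoc3 (0.23). For Plin4 they were Pi16 (0.28), Ltbp3 (0.29), a gene of latent TGF-β binding, and the fatty acid carrier gene Fabp4 (0.30). Nearest to Cidec were Crispld1 (0.73), Cfd (0.74) and Stc2 (0.77), each of which was also high on control array 3, at −3.12, 4.69 and −1.87.

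For the members lower on activation arrays the nearest genes were ones known from liver. Cideb lay nearest to the complement factor I gene Cfi (0.28), the acetyltransferase gene Nat8 (0.36) and the droplet-related esterase gene Aadac (0.39). These 3 shared its order in the activation group, with array 3 the lowest. Hsd17b13 lay nearest to the bile acid enzyme gene Cyp8b1 (0.75), the apolipoprotein gene Apoa1 (0.76) and the Kupffer cell gene Clec4f (0.81).

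Plin5 had Plin2 as its nearest gene of all (0.50), followed by Slc25a20 (0.53), the carrier that brings acylcarnitines into mitochondria, and Tstd3 (0.54). Plin2 had Optn (0.26), an autophagy receptor gene, and then the same 2, Slc25a20 (0.33) and Tstd3 (0.39). All of these were lower on activation arrays 1 and 4 than on 2 and 3. Plin3 lay nearest to Hgh1 (0.04), Zfp511 (0.05) and Poll (0.06), which were as level. Cidea had no near match: the closest, Ubd, was 1.61 away, followed by Rbmy (1.69) and Aunip (1.77).

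The rest of the droplet machinery was followed through 65 other genes in 5 lists by role, of which 64 were tested. Of these 17 rose (26.6%) and 26 fell (40.6%), with a median difference of −0.63, and 21 did not pass the test (limma, adjusted p under 0.05). Among all genes tested 24.0% rose and 29.0% fell, with a median of −0.08. The lists were chosen with earlier results of these data known, so these shares are a description. The hepatocyte and adipocyte marker sums given above moved beside every list below, and their part was not tested. With arrays of 1 mouse only, 11 rose and 24 fell, beside 16.5% and 20.8% of all genes.

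Enzymes of neutral lipid synthesis rose for 4 of 19 and fell for 7, with a median of −0.63. Soat2, the acyltransferase that makes cholesterol esters in liver and intestine, fell by 5.52 ± 0.34 (SE; limma, adjusted p = 3.7e-05), whereas Soat1, the form of most other tissues, rose by 1.62 ± 0.30 (SE; adjusted p = 0.00366). Lpin2, a phosphatidate phosphatase gene, fell by 4.70 ± 0.23 (SE; adjusted p = 1.8e-05), and Acsl5, which activates fatty acids, fell by 2.38 ± 0.31 (SE; adjusted p = 0.000841). Agpat1, an enzyme that adds the second acyl chain, rose by 2.03 ± 0.22 (SE; adjusted p = 0.000366). Of the enzymes of the last step of triglyceride synthesis, Dgat1 rose by 1.98 ± 0.37 (SE; adjusted p = 0.00417), while Dgat2 differed by −0.96 ± 0.39 (SE; adjusted p = 0.0731).

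Genes of droplet formation rose for 2 of 10 and fell for 6, with a median of −0.96. Fitm1, whose product helps fat to bud from the endoplasmic reticulum, fell by 7.65 ± 0.62 (SE; adjusted p = 0.000115) and was well above background on 3 of 4 activation arrays. Aup1, whose product sits on droplets and the endoplasmic reticulum, and Spast, the gene of spastin, fell by 1.44 and 1.22 (adjusted p = 0.00253 and 0.00224). Cds1, which makes CDP-diacylglycerol, rose by 4.98 ± 0.59 (SE; adjusted p = 0.000559) and was well above background on 1 of 3 control arrays; the difference was 2.87 with normexp. Bscl2, the gene of seipin, rose by 1.32 ± 0.37 (SE; adjusted p = 0.0208).

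Lipases and their regulators rose for 4 of 10 and fell for 3, with a median of 0.99. Pnpla2, the lipase ATGL that takes the first acyl chain from triglyceride and whose co-activator Plin1 holds, rose from 5.11 ± 0.14 (SD, n = 3) to 7.09 ± 0.56 (SD, n = 4), by 1.99 ± 0.32 (SE; adjusted p = 0.00205). Lipe, the hormone-sensitive lipase that follows it, rose by 4.84 ± 0.52 (SE; adjusted p = 0.000374), and Abhd5, that co-activator, by 0.96 ± 0.32 (SE; adjusted p = 0.0394). Pnpla3 rose by 4.96 ± 0.84 (SE; adjusted p = 0.00268), above background on 2 of 3 control arrays; the difference was 2.86 with normexp, and its other probe differed by 3.85. Aadac, an esterase gene of liver, fell by 7.74 ± 0.94 (SE; adjusted p = 0.000633). G0s2, an inhibitor of ATGL, differed by −0.30 ± 0.64 (SE; adjusted p = 0.719).

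Other droplet-bound proteins rose for 5 of 17 and fell for 7, with a median of −1.29. Those that rose include 3 proteins of caveolae, membrane pits that abound in fat cells: Cav1 by 7.90 ± 0.56 (SE; adjusted p = 6.5e-05), above background on 2 of 3 control arrays, Cavin1 by 5.56 ± 0.39 (SE; adjusted p = 6.3e-05) and Ehd2 by 5.15 ± 0.39 (SE; adjusted p = 8.5e-05). Another probe of Cavin1 differed by 4.25. Mettl7b fell by 6.99 ± 0.45 (SE; adjusted p = 4.7e-05). The droplet-bound sterol enzyme genes Hsd17b7 and Sqle fell by 3.50 and 2.93 (adjusted p = 0.000269 and 0.00334).

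**Figure D4:**
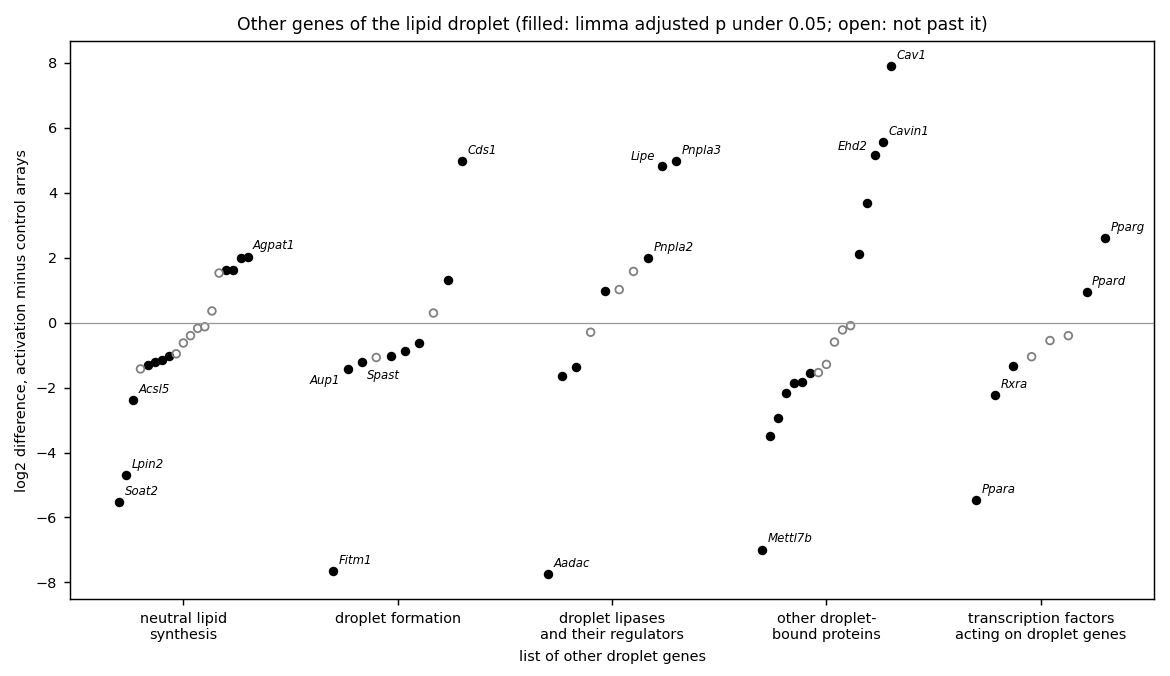
Log2 difference, activation minus control arrays, of 64 other droplet genes in 5 lists, in order within each list. Filled points passed the test (limma, adjusted p under 0.05, n = 3 and 4) and open points did not; every list holds genes on both sides of 0, from Aadac at −7.74 to Cav1 at 7.90.

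Transcription factors that act on droplet genes rose for 2 of 8 and fell for 3, with a median of −0.80. Ppara, the fasting and fat-burning regulator of liver and a known activator of Plin2 and Plin5, fell from 6.36 ± 0.21 (SD, n = 3) to 0.90 ± 0.40 (SD, n = 4), by 5.47 ± 0.25 (SE; adjusted p = 1.5e-05), and its other probes differed by −5.65 and −4.69. Pparg, which acts on Plin1, Cidea and Cidec in fat cells, rose from 2.31 ± 0.70 (SD, n = 3) to 4.92 ± 0.82 (SD, n = 4), by 2.61 ± 0.52 (SE; adjusted p = 0.00514). Ppard rose by 0.94 ± 0.19 (SE; adjusted p = 0.00574), a call lost with arrays of 1 mouse only (0.95, adjusted p = 0.0726). Rxra, the common partner, fell by 2.24 ± 0.24 (SE; adjusted p = 0.00034), and its other probe differed by −1.42.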

How the data were processed

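Per the file headers, Agilent Feature Extraction 10.7.1.1 processed the scan of 1 slide with all 7 arrays, and the deposited processed signal is an intensity on a linear scale, not normalised between arrays. The authors also deposited a series table of log2 values that served as an alternative; how it was normalised is not given in the sources used here, and its columns have medians of 7.52 to 7.53. Values were log2 signals minus the array's 75th percentile over all non-control spots. Control and outlier-marked spots were left out and spots of 1 probe averaged. Probes were named by accession through RefSeq (GRCm38.p6), which named 28026 of 55681 probes. A probe was tested where well above background on at least 3 arrays, and the brightest stood for its gene. Groups were compared with limma 3.58.1 in R 4.3.3 (two-sided, no covariate, Benjamini-Hochberg over 18031 genes), after a check on simulated data; every adjusted p comes from it. The members and lists were chosen with earlier results of these data known. Named are all members, the 4 smallest p in each droplet list, the first 2 markers of each marker list where a result needs them, and the 3 nearest genes of each member. Chosen after their values were seen were the droplet genes Soat1, Dgat1, Dgat2, Mogat1, Bscl2, Abhd5, G0s2, Hsd17b7, Hsd17b11 and Sqle. So were the markers Cfd, Cox8b, Zic1, Otop1, Elovl3, Dio2, Awat2, Fa2h, Lpl, Scd3, Krt79, Trf, Myh11, Itga8 and Trp63. Replicates are separate mice or pools of mice by the labels. The file names give other slide positions than the headers, with each group in 1 row, where row and group cannot be told apart.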

Additional observations from a re-analysis of the deposited data

Results flagged for a closer look

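Among the 9 members and 20 named droplet genes, 1 had an activation array far from the other 3: Cds1 was 1.16 on activation array 4 and −1.26 to −0.91 on the others. Chance marks about 1 in 20 such groups.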

How the results depend on the processing

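All 18 alternatives kept the direction of Plin1, Plin2, Plin4, Plin5, Cideb, Cidec and Hsd17b13, while Plin3 changed sign in 4 and Cidea in 5. Not all of the 18 are separate checks of the members. Keeping dim probes or outlier-marked spots left the difference of every member as it was. Blocking by replicate number gave each member the difference found without activation array 4. Of 20 named droplet genes, 19 kept their call in each alternative that could test them, with Ppard as the exception. With arrays of 1 mouse only, 11 droplet genes rose, against 17, and 4 members were lower without overlap, against 2; over all genes the shares moved alike, from 24.0% to 16.5% rising and from 32.6% to 42.4% lower without overlap. Leaving out 1 array gave 2 to 4 members lower without overlap, beside 33.8% to 36.5% of all genes. The higher count, with Plin2 and Plin5, came without control array 1 or activation array 2. Each such run gave 3 members higher without overlap, beside 27.1% to 31.6% of all genes. Over these runs 13 to 20 droplet genes rose and 20 to 28 fell, and 3244 to 4921 of all genes rose and 3996 to 5569 fell. Quantile normalisation and the deposited values put Plin3 among 4 members higher without overlap, beside 31.8% and 31.4% of all genes. Normexp put Plin5 among 3 members lower without overlap, beside 37.1% of all genes. Quantile normalisation gave 54.5% of calls as rises against 45.3%, and normexp 36.7%. Normexp used median spot signals. Same-numbered arrays of the 2 groups did not deviate together (correlations of −0.01, 0.00 and 0.02). With the replicate number as a replicate block 4491 genes rose and 4981 fell, with 20 and 25 droplet genes. Activation array 4 has no control array of its number, so in that fit it adds nothing to the group difference. Hsd17b13 was −0.88 where probes had to be above background on all 7 arrays, since its other probe then stood for it. Signals near background limit the size of the differences of Plin1, Hsd17b13, Cds1 (3.40 in the deposited values) and Pnpla3 (3.31).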
